A study of Mus musculus with 8 samples.

Results

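The genes described here are 10 markers of tissue-resident macrophages, namely Cd68, Csf1r, Mrc1, Cd163, F13a1, C1qa, C1qb, C1qc, Lyz2 and Cd14, chosen by name out of 24054 genes measured in soleus muscle (SOL). RNA was sequenced from 4 MI4KO mice and 4 flox mice, with 1 library for each mouse, and the question put to the data was whether these macrophage genes differ in muscle whose fibers lack the transcription factor Irf4. MI4KO mice carried floxed Irf4 alleles together with Myl1-Cre, a Cre driven from a myosin light chain gene of skeletal muscle fibers. Flox mice carried the floxed Irf4 alleles without Cre, so both groups shared the floxed alleles. All 8 mice were C57BL/6 males, and the labels give high fat diet as their food and no age. Within a group, mice 1 to 4 follow the numbers that the labels give them, lowest first. Nothing in the model directs Cre to macrophages, and whole soleus also holds vessels, connective tissue and blood, so macrophage RNA is a small share of what was sequenced.

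Resident macrophages live within a tissue, renew under the growth factors Csf1 and Il34 through the receptor Csf1r, and depend on the transcription factor PU.1, the product of Spi1. In skeletal muscle they lie in the connective tissue around fibers and vessels, clear dying cells and debris, take up hemoglobin and iron, and help repair after injury. The 10 genes cover these tasks: Csf1r, Mrc1, Cd163 and Cd14 encode surface receptors, C1qa, C1qb and C1qc the chains of complement C1q, F13a1 and Lyz2 a transglutaminase and a lysozyme, and Cd68 a glycoprotein of the lysosome membrane.

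All 10 genes were found by symbol in the deposited table and in the GENCODE M21 annotation of GRCm38. C1qb, C1qc and C1qa lie next to each other on the minus strand of chromosome 4, at 136880129 to 136886187, 136889804 to 136893065 and 136895917 to 136898803, and the cluster spans 18675 bases. Lyz2 is on chromosome 10 from 117277331 to 117282321, on the minus strand, with a gap of 5475 bases to its near copy Lyz1. Mrc1 lies on chromosome 2 (14229392 to 14332057, plus strand), Cd163 on chromosome 6 (124304656 to 124330527, plus strand), Cd68 on chromosome 11 (69664213 to 69666153, minus strand) and F13a1 on chromosome 13 (36867178 to 37050244, minus strand).

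The RefSeq promoter table (GRCm38.p6) matched 7 of the 10 genes, with 8 promoters, since F13a1 has a pair of them. C1qa, Csf1r and Cd14 have no entry in it. The 250 bases before each start were searched on both strands for GAGGAA, a core of sites bound by PU.1. It occurred in 5 of these 8 promoters and in 23.3% of 32851 mouse promoters of the same length. Composite sites of ETS and IRF factors (GGAA, 2 bases of any kind, then GAAA) were in 0 of the 8 and in 2.3% of all promoters. The core of the interferon-stimulated response element (GAAA, 2 bases of any kind, then GAAA) was in 0 of the 8 and in 2.98% of all promoters. These are matches of letters within these windows and are not known to be bound sites in muscle. Promoters of C1qb and C1qc, neighbors in the complement cluster, and of Mrc1, the gene with most matches, are printed 5′ to 3′ on the strand of the gene, ending at the base before the start, with each match on either strand in capitals (TTCCTC is the same motif on the other strand).
C1qb, chr4:136886201-136886450, minus strand: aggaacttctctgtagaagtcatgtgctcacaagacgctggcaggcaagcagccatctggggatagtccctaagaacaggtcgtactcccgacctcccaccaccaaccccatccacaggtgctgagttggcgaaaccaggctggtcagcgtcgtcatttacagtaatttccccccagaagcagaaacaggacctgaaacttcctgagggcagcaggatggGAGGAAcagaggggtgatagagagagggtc
C1qc, chr4:136892915-136893164, minus strand: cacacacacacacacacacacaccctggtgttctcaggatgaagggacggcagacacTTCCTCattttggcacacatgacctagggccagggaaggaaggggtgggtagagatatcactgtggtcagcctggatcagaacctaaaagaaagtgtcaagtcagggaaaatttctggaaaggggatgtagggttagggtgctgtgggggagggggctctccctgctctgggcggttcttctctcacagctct
Mrc1, chr2:14229164-14229413, plus strand: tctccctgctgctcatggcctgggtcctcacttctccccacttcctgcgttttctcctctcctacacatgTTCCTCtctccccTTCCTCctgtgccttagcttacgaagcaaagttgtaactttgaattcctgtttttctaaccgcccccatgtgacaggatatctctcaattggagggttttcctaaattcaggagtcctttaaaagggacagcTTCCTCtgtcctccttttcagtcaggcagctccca
In the C1qb promoter the only match lay 25 bases from the start, in that of C1qc 188 bases away, and in that of Mrc1 the nearest of 3 matches lay 30 bases away. Distances are counted from the RefSeq start and depend on it. For C1qc and Mrc1 that start, and part of the window, lies inside the gene as annotated by GENCODE. Cd68 had 1 match 220 bases from its start, the upstream F13a1 promoter had 1 match 61 bases away, and none was found for Cd163, Lyz2 or the second F13a1 promoter.

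Values are TMM-normalized CPM, read counts scaled to a common library size and then leveled across mice by the trimmed mean of M-values, and the reads behind them could be recovered as whole numbers. Each mouse had between 13417512 and 16384565 reads on genes, so that 3 reads on a gene, the least taken as detected, corresponded to values of 0.181 to 0.225. Groups were compared with limma after taking log2(value + 1), for the 11865 genes that reached a value of 1 in 4 or more of the 8 mice, and log2 fold changes are given as MI4KO minus flox on this scale, which understates changes of low genes. A gene was called at the study's limits, an unadjusted p under 0.05 together with a change of 1.5-fold or more. Of all genes tested, 26 (0.219%) were called, 399 (3.36%) had an unadjusted p under 0.05, and 0 (0%) had a Benjamini-Hochberg adjusted p under 0.05 in limma. At the study's limits edgeR and DESeq2 on the recovered reads called 65 and 51 genes, where limma called 26, and at an adjusted p under 0.05 both called 0. Irf4 itself was at 0.686, 1.46, 1.58 and 1.68 in flox mice 1 to 4 and at 0.725, 0.84, 0.266 and 1.03 in MI4KO mice 1 to 4. The groups overlapped through flox mouse 1, and the log2 fold change was -0.45 (SE 0.20; limma, unadjusted p = 0.0402). Without MI4KO mouse 3 it was -0.31 (limma, unadjusted p = 0.119). Without flox mouse 1 it was -0.60 (limma, unadjusted p = 0.0078) and with a pseudocount of 0.25 it was -0.75 (limma, unadjusted p = 0.0452), and Irf4 was called in both. On the recovered reads it was -0.86 with edgeR (unadjusted p = 0.0562) and -0.87 with DESeq2 (unadjusted p = 0.0583). The limma p was also above 0.05 with median-of-ratios or library-size scaling, the mouse number range as covariate, or without MI4KO mouse 1. Irf4 did not pass the filter on low values without flox mouse 2, 3 or 4 or MI4KO mouse 4. In bulk tissue, RNA of Irf4 left in MI4KO mice cannot be assigned to fibers or to other cells. Flox mouse 1 stood apart for liver genes, whose 14 listed markers summed to 202, against 5.44 to 14.4 in the other 7 mice. MI4KO mouse 3 stood apart for neutrophil genes, whose 10 measured markers summed to 7.25, against 1.65 to 2.48 in the other 7 mice. For each of the 10 genes the range of its log2 fold change with 1 mouse left out is given with it, and with the mice that set it.

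The 10 macrophage genes were low but detected in every mouse, with 10 to 313 reads for a gene in a mouse. Together they took 669 to 1078 reads in a mouse, which is 46.8 to 72.5 CPM before the TMM scaling. None of the 10 reached the median value of the genes tested, 16.1. Lyz2 came nearest, with 47% of tested genes below it, and Cd14 was lowest, with 0.775% of tested genes below it. All 10 passed the filter on low values, although Cd14 passed with just 4 mice at a value of 1 or more.

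To set levels of different genes side by side, each value was divided by the mean length of the gene's coding transcripts in GENCODE M21. Lyz2 was highest at 11.01 ± 2.38 CPM per kb (SD, n = 8). C1qa at 6.86 ± 0.946, C1qc at 6.63 ± 0.891 and C1qb at 5.98 ± 1.14 CPM per kb followed. The 3 complement chains thus had similar levels, with a C1qc to C1qa ratio of 0.971 ± 0.0986 and a C1qb to C1qa ratio of 0.869 ± 0.0958 (SD, n = 8), and their products join in 1 molecule. Lower down were Csf1r at 2.82 ± 0.343, Cd68 at 1.99 ± 0.588, F13a1 at 1.21 ± 0.186, Cd163 at 1.06 ± 0.244, Mrc1 at 0.658 ± 0.115 and Cd14 at 0.629 ± 0.195 CPM per kb. Lyz2 was above C1qa, C1qb above Csf1r and Cd163 above Mrc1 in 8 of 8 mice. The neighbors C1qa and C1qc kept their order in 5 mice, and C1qc and C1qb, Mrc1 and Cd14, and F13a1 and Cd163 in 6 mice each, so those steps did not exceed the spread between mice. Cd68 was above F13a1 and Csf1r above Cd68 in 7 mice, and Csf1r and Cd68 changed places when the longest transcript alone was used for the length, at 1.46 and 1.81 CPM per kb.

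**Figure D1:**
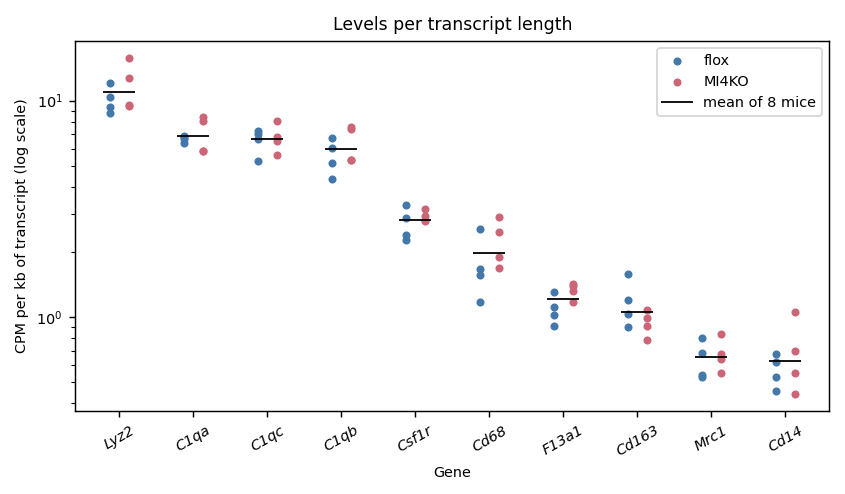
Levels of the 10 genes as TMM-normalized CPM per kb of transcript on a log axis, with 1 point for each mouse (flox and MI4KO in separate colors) and a bar at the mean of the 8 mice. Lyz2 was highest at 11.01, the 3 C1q genes lay between 5.98 and 6.86, and Mrc1 and Cd14 were lowest at 0.658 and 0.629.

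In the comparison of groups, 0 of the 10 macrophage genes were called, against 0.219% of all genes tested. An unadjusted p under 0.05 was reached by 0 of the 10, against 3.36% of all genes, and the adjusted p was 1 for each (limma). With edgeR and DESeq2 on the recovered reads, 0 of the 10 were called as well. Values of the groups did not separate for any of the 10, against 2.07% of all genes. The log2 fold change was above 0 for 9 of the 10, against 43.8% of all genes, with Cd163 the exception, and its median over the 10 was 0.11, against -0.01 for all genes tested. The 10 genes share mice and, as markers of 1 kind of cell, are not independent of each other. In bulk tissue, more or fewer macrophages and more or less RNA in each macrophage cannot be told apart.

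**Figure D2:**
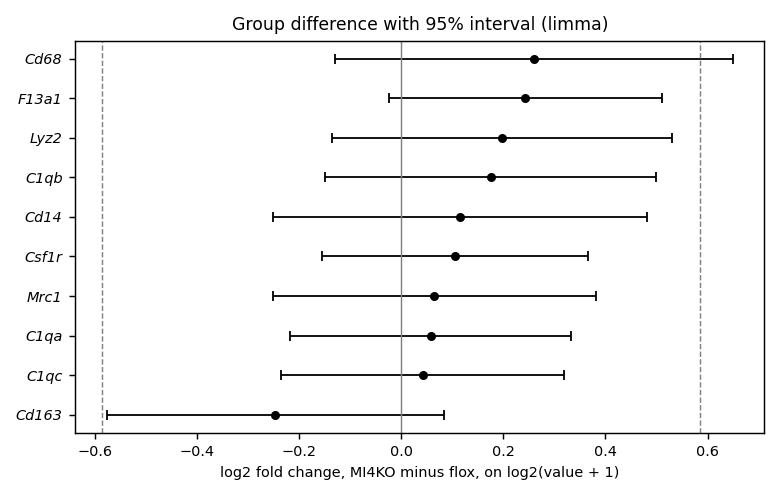
Log2 fold change of each gene, MI4KO minus flox on log2(value + 1), as a point with its 95% interval from limma, and dashed lines at a fold change of 1.5 in either direction. All 10 intervals hold 0, and that of Cd68, which ends at 0.65, is the only interval to pass a dashed line.

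For 9 of the 10 genes the 95% interval lay within a 1.5-fold change in either direction on the log2(value + 1) scale, and for Cd68 it ran up to 0.65. With a pseudocount of 0.25, which understates low genes less, 6 of the 10 intervals lay within it, and those of Cd68, Cd163, F13a1 and Cd14 passed it. Counting alone set part of the spread. For Csf1r the coefficient of variation was 17.1% in flox and 5.72% in MI4KO mice, where the read counts alone give 9.91%. For Lyz2 it was 14.2% and 25.3%, where counts alone give 6.81%, and for Cd14, the gene with fewest reads, 16.9% and 38.8%, where they give 25.5%.

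**Figure D3:**
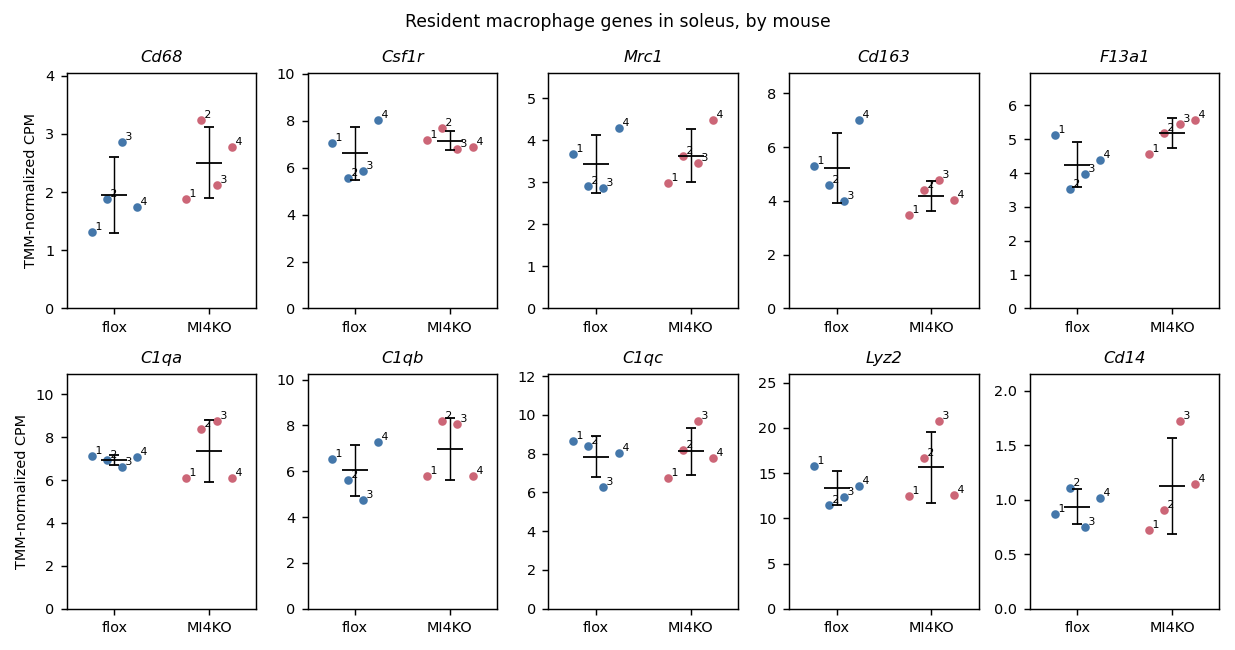
TMM-normalized CPM of each gene in every mouse, with numbered points for mice 1 to 4 of each group and a bar with whiskers for the mean ± SD (n = 4); each panel has its own axis from 0. Groups overlap in all 10 panels, and MI4KO mouse 3 is highest for C1qa, C1qc, Lyz2 and Cd14.

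Among the receptors, Csf1r, on which macrophage survival depends, is a plus-strand gene of chromosome 18 (61100598 to 61132149). It was at 7.05, 5.55, 5.85 and 8.02 in flox mice 1 to 4 and at 7.18, 7.69, 6.78 and 6.89 in MI4KO mice 1 to 4. The MI4KO values lay inside the range of the flox mice. Means were 6.62 ± 1.14 in flox and 7.14 ± 0.408 in MI4KO mice (SD, n = 4), and the log2 fold change was 0.11 (SE 0.12, 95% interval -0.15 to 0.37; limma, unadjusted p = 0.394). With 1 mouse left out it was between 0.04, without flox mouse 2, and 0.19, without flox mouse 4, and it was 0.06 without flox mouse 3.

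Cd163, the scavenger receptor that takes up hemoglobin bound to haptoglobin, was the gene with a negative difference. It was at 5.30, 4.58, 3.98 and 6.995 in flox mice 1 to 4 and at 3.48, 4.396, 4.79 and 4.05 in MI4KO mice 1 to 4. Flox mouse 4 was the highest and MI4KO mouse 1 the lowest, and the other 6 mice overlapped. The mean was 5.21 ± 1.31 in flox and 4.18 ± 0.553 in MI4KO mice (SD, n = 4), with a log2 fold change of -0.25 (SE 0.15, 95% interval -0.58 to 0.08; limma, unadjusted p = 0.131). With 1 mouse left out it was between -0.35, without flox mouse 3 (limma, unadjusted p = 0.0464), and -0.12, without flox mouse 4 (limma, unadjusted p = 0.421).

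Mrc1, the mannose receptor CD206, was at 3.68, 2.91, 2.85 and 4.30 in flox mice 1 to 4 and at 2.97, 3.62, 3.46 and 4.47 in MI4KO mice 1 to 4. Both groups had a mouse above 4 and a mouse below 3, and the log2 fold change was 0.07 (SE 0.15, 95% interval -0.25 to 0.38; limma, unadjusted p = 0.662). Leaving out 1 mouse put it between -0.02, without MI4KO mouse 4, and 0.16, without flox mouse 4, and it was 0.01 and 0.00 without flox mice 2 and 3 and 0.14 without MI4KO mouse 1.

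Cd14, the co-receptor for lipopolysaccharide, which monocytes and neutrophils also make, lies on chromosome 18 from 36725067 to 36726798, on the minus strand. It was at 0.873, 1.11, 0.750 and 1.02 in flox mice 1 to 4 and at 0.725, 0.905, 1.73 and 1.15 in MI4KO mice 1 to 4. MI4KO mouse 3 was the highest and MI4KO mouse 1 the lowest, so the MI4KO mice enclosed the flox mice. The log2 fold change was 0.12 (SE 0.17, 95% interval -0.25 to 0.48; limma, unadjusted p = 0.505), on 10 to 26 reads in a mouse. It no longer passed the filter on low values without MI4KO mouse 3 or 4 or flox mouse 2 or 4, and without another mouse it was between 0.07, for flox mouse 3, and 0.21, for MI4KO mouse 1.

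Of the complement genes, C1qa, the A chain, was at 7.11, 6.94, 6.60 and 7.07 in flox mice 1 to 4 and at 6.09, 8.40, 8.78 and 6.10 in MI4KO mice 1 to 4. The flox mice lay close together, with a coefficient of variation of 3.31%, while the MI4KO mice fell into a pair above and a pair below all of them (19.7%). Counts alone give 9.72%, so the flox spread was less than counting error. The log2 fold change was 0.06 (SE 0.13, 95% interval -0.22 to 0.33; limma, unadjusted p = 0.656), and with 1 mouse left out it was between -0.02, without MI4KO mouse 3, and 0.13, without MI4KO mouse 1 or 4. It was also below 0 without MI4KO mouse 2, and 0.04 without flox mouse 3.

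C1qb, the B chain, was at 6.55, 5.62, 4.73 and 7.29 in flox mice 1 to 4 and at 5.80, 8.21, 8.04 and 5.80 in MI4KO mice 1 to 4. MI4KO mice 2 and 3 were above all flox mice, and MI4KO mice 1 and 4 lay among them. Its log2 fold change was 0.18 (SE 0.15, 95% interval -0.15 to 0.50; limma, unadjusted p = 0.262). Leaving out 1 mouse put it between 0.08, without flox mouse 3, and 0.26, without flox mouse 4, and it was 0.10 and 0.11 without MI4KO mice 2 and 3.

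C1qc, the C chain, was at 8.67, 8.39, 6.30 and 8.02 in flox mice 1 to 4 and at 6.75, 8.21, 9.71 and 7.80 in MI4KO mice 1 to 4. MI4KO mouse 3 was highest and flox mouse 3 lowest. The log2 fold change was 0.04 (SE 0.13, 95% interval -0.24 to 0.32; limma, unadjusted p = 0.747), and with 1 mouse left out it was between -0.05, without flox mouse 3, and 0.12, without MI4KO mouse 1. It was -0.04 without MI4KO mouse 3, and 0.09 and 0.07 without flox mice 1 and 2.

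Lyz2, the lysozyme of macrophages and neutrophils, was at 15.8, 11.5, 12.3 and 13.6 in flox mice 1 to 4 and at 12.5, 16.7, 20.8 and 12.6 in MI4KO mice 1 to 4. MI4KO mice 2 and 3 were above all flox mice and the other two were among them. The log2 fold change was 0.20 (SE 0.15, 95% interval -0.14 to 0.53; limma, unadjusted p = 0.222), and with 1 mouse left out it was between 0.06, without MI4KO mouse 3, and 0.29, without MI4KO mouse 1. In MI4KO mouse 3, where Lyz2 and Cd14 were highest, the neutrophil markers also summed highest, at 7.25, and the part of neutrophils in these values was not tested. Reads of Lyz2 can be split with Lyz1, since 195 of the 1267 stretches of 50 bases in its transcripts (15.4%) also occur in Lyz1. Lyz2 made up 80.8% ± 2.51 (SD, n = 8) of the summed Lyz1 and Lyz2 values, and its share was 80.2% ± 3.10 in flox and 81.3% ± 2.04 in MI4KO mice (SD, n = 4).

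F13a1, the A subunit of coagulation factor XIII, a transglutaminase that macrophages carry in the cytoplasm, was at 5.11, 3.54, 3.98 and 4.37 in flox mice 1 to 4 and at 4.57, 5.17, 5.45 and 5.56 in MI4KO mice 1 to 4. Flox mouse 1 alone reached into the MI4KO range, above MI4KO mouse 1. Means were 4.25 ± 0.669 in flox and 5.19 ± 0.443 in MI4KO mice (SD, n = 4). The log2 fold change of 0.24 (SE 0.12, 95% interval -0.02 to 0.51; limma, unadjusted p = 0.0710) had the lowest p of the 10 genes. The unadjusted limma p was under 0.05 under 5 of 18 alternatives, 0.0492 with median-of-ratios scaling, 0.0421 with library-size scaling, 0.0431 without the mean-variance trend, 0.0280 without flox mouse 1 and 0.0465 without MI4KO mouse 1, and the gene was called under none of them. With 1 mouse left out the log2 fold change was between 0.18, without flox mouse 2 (limma, unadjusted p = 0.194), and 0.32, without flox mouse 1. The difference stood among the mice numbered from 1280, at 0.39 (3 flox and 2 MI4KO mice), and was -0.06 among those numbered from 1220 (1 flox and 2 MI4KO mice), which are too few for a test.

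Cd68, the lysosomal glycoprotein, was at 1.31, 1.87, 2.85 and 1.75 in flox mice 1 to 4 and at 1.89, 3.23, 2.13 and 2.78 in MI4KO mice 1 to 4. It was lowest in flox mouse 1, but flox mouse 3 lay above MI4KO mice 1, 3 and 4. With 21 to 50 reads in a mouse, it had the highest positive log2 fold change of the 10, 0.26, and the widest interval (SE 0.18, -0.13 to 0.65; limma, unadjusted p = 0.173). With 1 mouse left out the log2 fold change was between 0.15, without flox mouse 1 (limma, unadjusted p = 0.427), and 0.40, without flox mouse 3 (limma, unadjusted p = 0.0422), and it was 0.16 without MI4KO mouse 2.

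Across mice, the 10 genes were compared by their deviations from each gene's mean over the 8 mice in units of its SD (z). Mean z over the 10 was 0.10, -0.60, -0.85 and 0.39 in flox mice 1 to 4 and -0.69, 0.63, 0.92 and 0.10 in MI4KO mice 1 to 4. MI4KO mouse 1 stood with flox mice 2 and 3 at the low end, and flox mouse 4 lay above MI4KO mice 1 and 4, so the genotypes overlapped. MI4KO mouse 3 was highest for 4 genes, MI4KO mouse 2 for Cd68 and C1qb, MI4KO mouse 4 for Mrc1 and F13a1, and flox mouse 4 for Csf1r and Cd163. Flox mouse 1, the mouse with liver RNA, was highest for none. Of the markers of Kupffer cells, the macrophages of liver, Clec4f, Cd5l and Marco are named here with their values already known. Clec4f and Cd5l had reads in flox mouse 1 alone, at values of 0.12 and 0.19, and Marco was at 0 in all 8 mice. These values stand for 2 and 3 reads, so Clec4f was under the 3 reads taken as detected. Of the listed Kupffer cell markers with reads in other mice too, Vsig4 was highest in flox mouse 1, at 0.69. Timd4 and Folr2 were highest in MI4KO mice 4 and 2, at 0.66 and 2.52.

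**Figure D4:**
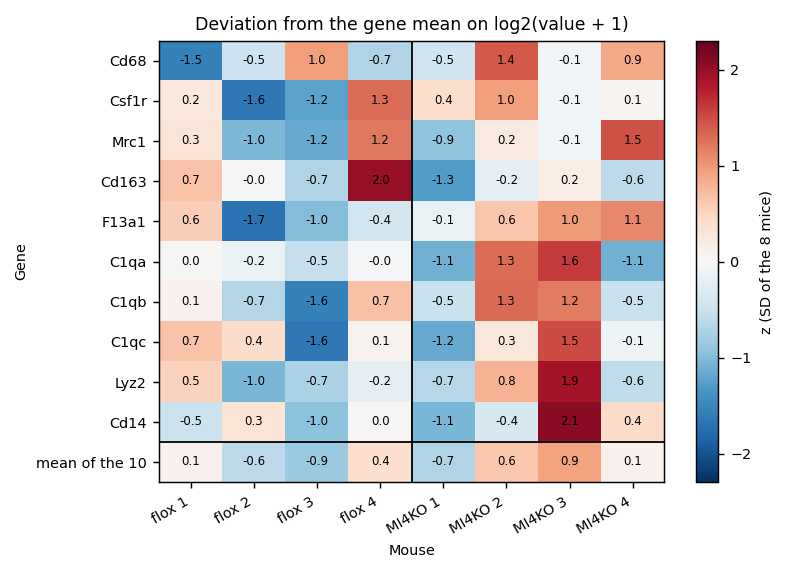
Deviation of each gene (rows) in each mouse (columns) from its mean over the 8 mice on log2(value + 1), in units of SD, with the mean of the 10 genes in the bottom row. The mean is lowest in flox mouse 3 at -0.85 and highest in MI4KO mouse 3 at 0.92, and mice of both genotypes lie between them.

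Most pairs of the macrophage genes were positively correlated from mouse to mouse, which was not set against pairs of other genes. Of their 45 pairs, 37 had a Pearson r above 0 over the 8 mice, with a median r of 0.40 and a range from -0.47 to 0.86, and the mice share library depth and tissue composition. By permutation, 6 pairs had an unadjusted p under 0.05, and 0 had a Benjamini-Hochberg adjusted p under 0.05 over the 45. All 6 were pairs among the C1q genes, Lyz2 and Cd14. Cd68 had an r between -0.47, with Cd163, and 0.16, with F13a1. C1qa and Lyz2 had the highest r, 0.862 (permutation p = 0.00471, adjusted p = 0.197; Spearman's rho 0.786, permutation p = 0.0279). Without MI4KO mice 2 and 3, the 2 mice farthest from the median of C1qa, it was 0.445. Leaving out the extreme mice narrows the range and tends to lower r. Without flox mouse 1 and MI4KO mouse 3 it was 0.796. Among the complement chains, r was 0.808 for C1qa and C1qb (permutation p = 0.0155, adjusted p = 0.197; Spearman's rho 0.738, permutation p = 0.0458), 0.741 for C1qb and C1qc (permutation p = 0.0360, adjusted p = 0.317; rho 0.548, permutation p = 0.171) and 0.711 for C1qa and C1qc (permutation p = 0.0441, adjusted p = 0.317; rho 0.810, permutation p = 0.0218). Without the 2 mice farthest from the median of the first gene these were 0.436, 0.676 and 0.581. Without flox mouse 1 and MI4KO mouse 3 they were 0.739, 0.660 and 0.524.

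The genes with the pattern most like the mean z of the 10, by Pearson r over the 8 mice among 11855 other genes, were E330020D12Rik (0.964), 2900079G21Rik (0.958), Tut1 (0.953), Thsd1 (0.946) and Ube2t (0.928). The next were Farp1 (0.916), Dgat2 (0.911), Med1 (0.906), Hmox1 (0.902), Cdca4 (0.896), Eml5 (0.894), Tgfbr3 (0.894), Anks6 (0.892), Ormdl2 (0.891) and Frat1 (0.890). Hmox1, the heme oxygenase that degrades the heme taken up with hemoglobin, was the 1 gene of the 15 in a list of macrophage tasks. MI4KO mouse 3 was highest for 13 of the 15, and without MI4KO mouse 3 and flox mouse 1, 3 of the 15 were among the 15 most alike. With 8 mice, 64 genes had an r above 0.8.

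Csf1, Il34, Spi1, Lyve1 and further genes of the lists were set beside this pattern after their values were seen. Csf1, the ligand of Csf1r, had an r of 0.878 with the mean z (Spearman's rho 0.857) and of 0.877 without MI4KO mouse 3 and flox mouse 1, at place 18 among all genes. Il34, the other ligand, had an r of -0.08. Spi1, the gene of PU.1, had an r of 0.61, which was 0.41 without those mice. Of 20 other macrophage markers that passed the filter, 14 had an r above 0, with a median of 0.28, against 0.02 for all genes. Lyve1, a marker of macrophages along vessels, was at 0.65 and the integrin Itgam at 0.64. Without MI4KO mouse 3 and flox mouse 1 they were at 0.40 and 0.32. Lgmn, a lysosomal protease that other cells also make, was at -0.70. Mertk, Igf1 and Colec12 were at -0.36, -0.34 and -0.30, and at -0.42, 0.20 and 0.69 without those mice. A positive r was not particular to macrophage markers. Fibroblast markers lay between -0.07 (Lum) and 0.35 (Pdgfra) over the 8 mice. Without MI4KO mouse 3 and flox mouse 1 they lay between 0.37 (Col1a1) and 0.85 (Dcn). All these correlations are given as descriptions.

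In the comparison of groups, genes that act with the 10 were followed by lists. For the Csf1r ligands and transcription factors of macrophages, 9 of 9 genes were tested, 0 had an unadjusted limma p under 0.05 and 7 had a positive log2 fold change, with a median of 0.19. Their values summed to 387 in MI4KO mouse 3, against 159 to 209 in the other mice. Cebpb and Maf were among the genes of the list with the highest values, with log2 fold changes of 0.15 (SE 0.22) and 0.23 (SE 0.25). Both were highest in MI4KO mouse 3, at 251.2 and 27.5, against at most 146.5 and 13.7 in the other mice. Il34 had the lowest log2 fold change, -0.16 (SE 0.14).

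Of 39 other macrophage markers, 20 were tested, and 7 had a positive and 13 a negative log2 fold change, with a median of -0.06. Gas6, Lgmn and Apoe were highest. Apoe, a lipid carrier made by macrophages and above all by liver, had the lowest log2 fold change, -0.55 (SE 0.18; limma, unadjusted p = 0.0094), and was the 1 gene of the list with a p under 0.05. Its mean was 54.9 ± 16.4 in flox and 36.7 ± 7.14 in MI4KO mice (SD, n = 4), and flox mouse 1, the mouse with liver RNA, was at 79.5. Every MI4KO mouse was below every flox mouse, where the groups did not overlap in either direction for 2.07% of all genes tested. Without flox mouse 1 the log2 fold change was -0.36 (limma, unadjusted p = 0.0251). Apoe exceeded a 1.5-fold change, and so was called, without flox mouse 2, 3 or 4 or MI4KO mouse 2 or 4. It was also called with the mouse number range as covariate. Itgam had the highest log2 fold change of the list, 0.27 (SE 0.21). Emr1, the gene of the macrophage antigen F4/80 (now Adgre1), was singled out after its values were seen. It was at 0.873, 0.832, 0.675 and 0.729 in flox mice 1 to 4 and at 0.943, 1.10, 1.13 and 1.09 in MI4KO mice 1 to 4, so that every MI4KO mouse was above every flox mouse. It did not pass the filter on low values, with 9 to 18 reads in a mouse, and without the filter its log2 fold change was 0.22 (SE 0.08; limma, unadjusted p = 0.0270, adjusted p = 0.988).

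Among activation genes, Retnla, which alternatively activated macrophages secrete and fat tissue also makes, was called. It was at 0.935, 2.08, 1.80 and 1.68 in flox mice 1 to 4 and at 0.363, 1.68, 0.266 and 0.423 in MI4KO mice 1 to 4. MI4KO mouse 2 lay within the flox range and the other 3 MI4KO mice below it, and the log2 fold change was -0.69 (SE 0.24; limma, unadjusted p = 0.0132). It was not called without MI4KO mouse 3, at -0.58, and did not pass the filter on low values without flox mouse 2, 3 or 4 or MI4KO mouse 2. Retnla was 1 of 5 alternative activation genes tested, whose median was -0.16, and Il4ra, the receptor chain for the inducing cytokines, was at 0.05 (SE 0.27). Of the inflammatory activation genes, 2 of 16 were tested. Irf5, a transcription factor of the inflammatory state and a relative of Irf4, was at 6.17, 8.19, 7.50 and 6.12 in flox mice 1 to 4 and at 5.15, 5.11, 4.99 and 5.74 in MI4KO mice 1 to 4. Every MI4KO mouse was below every flox mouse, with a log2 fold change of -0.35 (SE 0.12; limma, unadjusted p = 0.0107, below a fold change of 1.5). Nos2 was at -0.39 (SE 0.26).

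Around C1q, 16 complement genes were tested, 3 with a positive and 13 with a negative log2 fold change, and the median was -0.12. The highest values were those of Calr, a partner of C1q on dying cells, Lrp1 and Serping1, the inhibitor of C1, none of which had a p under 0.05. An unadjusted limma p under 0.05 was reached by 4 of the 16. Cfd, the factor D of the alternative pathway made by fat cells, was called at -0.65 (SE 0.28; limma, unadjusted p = 0.0395), with a mean of 9.87 ± 2.03 in flox and 6.54 ± 3.78 in MI4KO mice (SD, n = 4). The call was lost without flox mouse 2, 3 or 4 or MI4KO mouse 1 or 3, with edgeR (-0.56, unadjusted p = 0.128) and DESeq2 (-0.57, unadjusted p = 0.198) on the recovered reads, and with other scalings, no trend, no filter, a pseudocount of 4 or the mouse number range as covariate, and the log2 fold change was -0.37 without MI4KO mouse 1. Itgb2, the beta chain of the complement receptors on leukocytes, was at 0.51 (SE 0.18, limma unadjusted p = 0.0141), with 0.782 ± 0.359 in flox and 1.53 ± 0.372 in MI4KO mice (SD, n = 4). It was called with edgeR and DESeq2 on the recovered reads, with a pseudocount of 0.25, and without flox mouse 1 or MI4KO mouse 4. C2, an early component, and Cd93, a surface protein of endothelial cells, named because they complete the 4, were at -0.41 and -0.32. C2 was at -0.64 and called with both edgeR and DESeq2 on the recovered reads, and Cd93 was called in no fit.

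Partners of the other members were counted in the same way. For the lipopolysaccharide receptor complex of Cd14, 0 of 7 tested genes had an unadjusted limma p under 0.05, and Tlr4 was at -0.03 (SE 0.21). For hemoglobin scavenging and iron, beside Cd163, it was 0 of 10, with the ferritin genes Fth1 and Ftl1 at 0.02 and 0.05 and the iron exporter Slc40a1 highest at 0.35 (SE 0.21). For lysosome genes, beside Cd68, it was 0 of 12, with a median of 0.00, and Psap, Ctsd and Lamp1 lay between -0.01 and 0.09. In the mannose receptor family and other endocytic receptors, 3 of 5 tested genes had an unadjusted limma p under 0.05. Stab2, a hyaluronan receptor of endothelial cells in sinusoids, was higher in every MI4KO mouse, with means of 5.26 ± 0.607 and 6.82 ± 0.771 (SD, n = 4) and a log2 fold change of 0.32 (SE 0.12, limma unadjusted p = 0.0178), and Scarb1 and Pla2r1, the latter named as it completes the 3, were at -0.32 and -0.31. Of transglutaminases and coagulation factors, beside F13a1, 1 of 6 had an unadjusted limma p under 0.05, the tissue factor F3 at -0.25 (SE 0.12). Tgm2, another transglutaminase, was at 0.04 (SE 0.11).

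**Figure D5:**
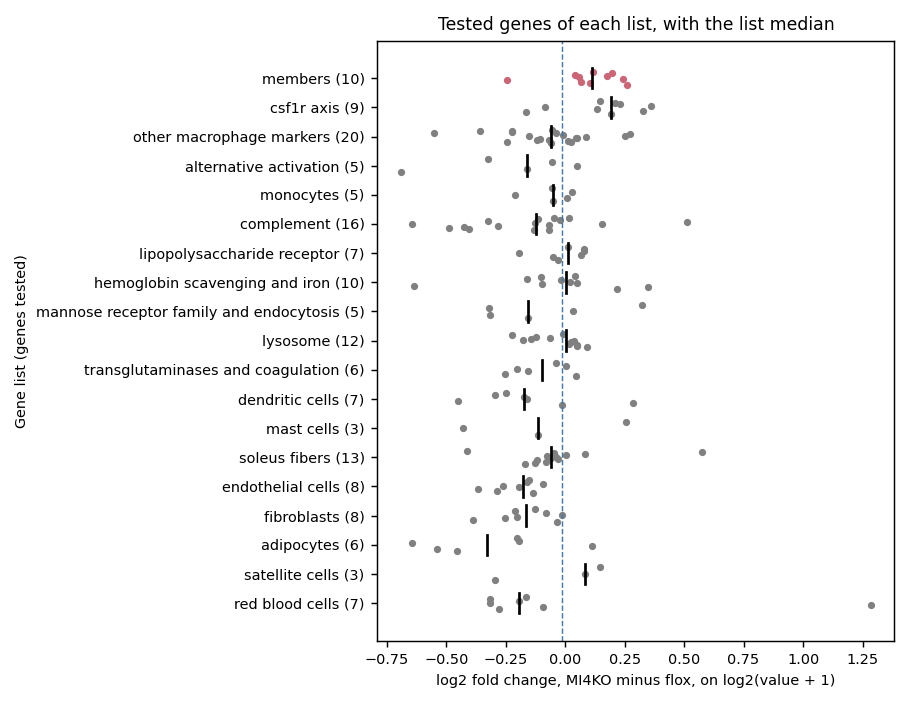
Log2 fold change, MI4KO minus flox on log2(value + 1), of each tested gene in the lists with at least 3 tested genes, with a black bar at the list's median and a dashed line at the median of all tested genes. The 10 macrophage genes have a median of 0.11, the Csf1r axis 0.19, complement -0.12 and fibroblasts -0.16.

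Markers of other cells that could carry some of the 10 genes were counted as well. For monocytes, 0 of 5 tested genes had an unadjusted limma p under 0.05, with a median of -0.05. Of 11 neutrophil markers 1, Cxcr2, was tested, at 0.14 (SE 0.17), and of 13 lymphocyte genes with a row none passed the filter. For dendritic cells 1 of 7 tested genes, Irf4 itself, had an unadjusted limma p under 0.05, with a median of -0.17, and of the antigen presentation genes Cd74 was at -0.25 (SE 0.13). For mast cells it was 0 of 3. Of the tested markers of endothelial cells, fibroblasts and adipocytes, 8 of 8, 8 of 8 and 5 of 6 had negative log2 fold changes, with medians of -0.18, -0.16 and -0.33. Of all 11865 genes tested, 6671 were negative. An unadjusted limma p under 0.05 was reached by 2 of 8, 0 of 8 and 1 of 6, against 3.36% of all genes. The 10 macrophage genes had a median above 0, at 0.11. For the other macrophage markers it was below 0, at -0.06, with 13 of 20 negative. MI4KO mouse 1 had the lowest sums of all 8 mice for endothelial cells, fibroblasts and adipocytes, 317, 320 and 181. It was also among the 3 mice with lowest mean z of the 10 macrophage genes. The part of tissue composition in the macrophage values was not tested. The 13 listed soleus fiber genes summed to between 108400 and 127200 in the 8 mice, where all genes summed to between 917785 and 1089208. Myh7, the slow myosin of soleus, was at 13000 ± 1530 in flox and 11520 ± 499.9 in MI4KO mice (SD, n = 4). Of the 13, 1 had an unadjusted limma p under 0.05, Myl1, the gene that drives Cre, at -0.41 (SE 0.10).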

How the data were processed

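SOL of 4 MI4KO and 4 flox mice was analysed, with groups taken from the labels. Libraries were stranded and poly(A)-selected, and 50-base single reads were aligned by the authors to UCSC transcripts using Bowtie2 2.1.0 (mm10 in the submitters' processing notes) and quantified using RSEM 1.2.15 before TMM scaling. What they deposited per gene and mouse is a signal, the CPM after TMM. Beside it, the authors deposited their edgeR comparison as a fold-change score, a p-value column and an FDR column, which were not used. Dividing values by the step of each mouse gave whole reads for 100% of non-zero values (tolerance 0.02). Totals and floors cover counting error only. Pairs of mice in a group had chi-square values per degree of freedom of 6.06 to 52.4, so none was taken for a single library.

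The values being normalized, limma 3.58.1 (R 4.3.3) was fitted with a mean-variance trend to log2(value + 1) of all tested genes. edgeR 4.0.16 and DESeq2 1.42.0 on recovered reads, other pseudocounts, filters and scalings, the range of mouse numbers, and each mouse left out were alternatives. The test was tried on simulated data. Permutation tests used scipy 1.17.1. Of 287 symbols in 26 lists of related genes and cell markers, 3 have no row and 1 was matched through a RefSeq synonym. Named genes are the 10 members, Irf4, in the lists described by name the 3 genes with highest values, those called and those with lowest and highest log2 fold change, and the 15 genes most like the members over the mice. Some other genes of the lists are also named, chosen after their values were seen. One gene that the rule names is not reported here. The 10 members and the lists were chosen with earlier results of these data known.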

Additional observations from a re-analysis of the deposited data

Results flagged for a closer look

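A mouse far from the others of its group, by Dixon's gap over range, was looked for in 40 groups of 4 mice, and 2 passed the 95% limit for 4 mice, which chance passes in about 1 of 20 groups. None of the 10 macrophage genes was among them. Retnla was at 1.68 in MI4KO mouse 2, far above the other MI4KO mice, with 0.844 of the range in the gap. Apoe was at 79.5 in flox mouse 1, the mouse with liver markers, far above the other flox mice, with 0.921 of the range in the gap. No explanation was tested for either.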

How the results depend on the processing

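Under all 18 alternatives run, 0 of the 10 macrophage genes were called, and their median log2 fold change stayed positive, between 0.06 and 0.19 with 1 mouse left out. Of 175 values of the 10 genes under the alternatives, 169 kept their sign and 6 turned, all close to 0. C1qa was -0.0129 without both MI4KO mouse 3 and flox mouse 1. With 1 mouse left out, C1qa ranged from -0.0238 to 0.130, C1qc from -0.0472 to 0.117 and Mrc1 from -0.0181 to 0.155. An unadjusted p under 0.05 was reached in 7 of the 175, 5 of them for F13a1. The number of all genes called depended on the settings, with 60 at a pseudocount of 0.25, 6 at a pseudocount of 4, 65 with edgeR and 51 with DESeq2 on recovered reads, and 18 to 57 with 1 mouse left out, the most without MI4KO mouse 4. Of the 15 genes most like the members, 3 remained without both MI4KO mouse 3 and flox mouse 1. The cause of these shifts was not tested. Cd14 could not be tested without flox mouse 2 or 4 or MI4KO mouse 3 or 4, since it no longer passed the filter. No paired analysis was possible because each mouse has its own number in the labels. The members have 10 to 313 reads in a mouse, which limits the precision of each value.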
